A study of Mus musculus with 9 samples.

Results

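Gdf9, Bmp15, Bmp6, Fgf8 and Kit were followed in growing mouse oocytes as the 5 named rows among the 28051 genes of the normalized matrix, and their transcript levels and the ratios between them were compared among oocytes with different sex chromosomes. Of the 5 genes, 4 passed the filter on low counts and were tested, and Fgf8 did not. The 9 samples were 3 pools each of XX, XO and XY oocytes. Every pool held 30 oocytes taken at 18 dpp, 10 of them 50–55 μm and 20 of them 55–60 μm in diameter. XY females, which develop ovaries because the Y chromosome of the B6.YTIR strain comes from another mouse stock, and their XX sisters had B6.YTIR fathers. XO females were sired by Paf carrier males, on a background moved from C3H/HeSnJ to B6 by backcrossing, so the missing X cannot be told apart from the different cross in comparisons with XO oocytes. The pools were said to be biological replicates, and neither the number of females behind a pool nor a shared litter is stated.

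A growing oocyte governs the follicle cells around it by proteins that it secretes. GDF9 and BMP15 are closely related members of the TGF-beta family, made almost only by oocytes, which act singly and as a heterodimer on granulosa cells. BMP6 is a further ligand of this family from the oocyte, and FGF8 is a fibroblast growth factor that acts together with BMP15 on glycolysis in cumulus cells. KIT works in the reverse direction, as the receptor on the oocyte surface for KIT ligand from granulosa cells, and its signal feeds oocyte growth through PI3 kinase. Bmp15 lies on the X chromosome in mice, whereas the other 4 genes are autosomal.

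In the coordinates of the matrices, which are those of GRCm38, Bmp15 occupies chrX:6314107-6320721 on the minus strand and has 1 transcript of 2 exons in Gencode vM21. Gdf9 lies at chr11:53431023-53437904 on the plus strand, Bmp6 at chr13:38345107-38500302 on the plus strand, Fgf8 at chr19:45736798-45742915 on the minus strand and Kit at chr5:75574916-75656722 on the plus strand. Bmp6 overlaps 4930579J19Rik and Txndc5 on the opposite strand, and the reads were counted by strand. The promoter of Bmp15 is shown because it is the X-linked gene of the set and the one whose level was called different between XX and XY oocytes. It is the run of 250 bases before the RefSeq start (GRCm38.p6, chrX:6320725-6320974, minus strand), written 5′ to 3′, and capitals mark matches to the motifs searched.
Bmp15: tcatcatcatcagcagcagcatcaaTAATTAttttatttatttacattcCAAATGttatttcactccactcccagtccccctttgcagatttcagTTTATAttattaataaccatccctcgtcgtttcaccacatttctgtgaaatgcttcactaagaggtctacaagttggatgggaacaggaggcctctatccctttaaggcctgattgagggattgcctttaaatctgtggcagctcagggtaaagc
Its GC content was 40.4%. TAATTA, a core of homeodomain sites, matched 1 time at 225 bases before the start, CANNTG, the E-box, 1 time at 201 bases, and TATAAA 1 time at 155 bases, on the reverse strand. These motifs were sought on both strands, and the matches did not overlap. Of the 32851 RefSeq promoter windows of this length, 66.2% held CANNTG, 4.84% TAATTA and 12.4% TATAAA. The related homeodomain core TAATTG, in 7.17% of the windows, and AGGTCA, in 14.0%, had no match in that of Bmp15. The windows of Bmp6 and Kit were richer in GC, at 68.8% and 70.8%, and held 2 matches and no match to CANNTG. No window for Gdf9 or Fgf8 was used here.

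The libraries had 2130145–3157338 UMIs on genes and 18334–21044 genes with a UMI, and ERCC spike-ins made up 0.204–0.862% of the UMIs. A UMI marks 1 transcript molecule at its 5′ end, so that levels of different genes were set side by side without division by length. Whether long and short transcripts were captured equally well was not tested. Normalized CPM are UMIs scaled to the gene total of the pool and divided by a factor that the authors took from the spike-ins. Their sum over all genes was 802037–888533 in XX, 1181293–1422594 in XO and 864867–990044 in XY pools. With this scaling the median log2 fold change of the 10993 tested genes was -0.46 for XX against XO pools, -0.19 for XX against XY and -0.30 for XY against XO. With TMM factors computed from the genes themselves it was -0.11, -0.01 and -0.13, so the values of both scalings, and of the ratios, which do not depend on scaling, are given. Transcripts were compared with edgeR's quasi-likelihood test on the UMIs, two-sided, and a gene is called when its p-value without adjustment was below 0.05. Each p-value printed beside a gene is adjusted by the method of Benjamini and Hochberg across the whole set of tested genes, so that a called gene can have a large adjusted p. A pool mixes its oocytes, so fewer oocytes with a transcript and less of it in each cannot be told apart.

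All 5 transcripts were found in XX, XO and XY oocytes, at very different levels. Bmp15 was the most abundant of them in 7 of 9 pools, followed by Gdf9, Kit, Bmp6 and Fgf8. In XO2 and XO3, Gdf9 stood above Bmp15. By mean normalized CPM, Bmp15 ranked 128 from the top among 23502 genes with a UMI in XX oocytes, 204 of 23452 in XO and 354 of 24288 in XY oocytes. The ranks of Gdf9 were 433, 155 and 466 in the same order of genotypes, those of Kit 1103, 1227 and 1246, and those of Bmp6 3903, 4360 and 4349. Bmp15 and Gdf9 together took 81.7–93.6% of the UMIs of the 5 genes. The share of Bmp15 alone was 68.0–69.8% in XX, 30.3–60.6% in XO and 44.6–52.2% in XY pools, so that the XX pools lay above all others and within a narrow range.

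**Figure D1:**
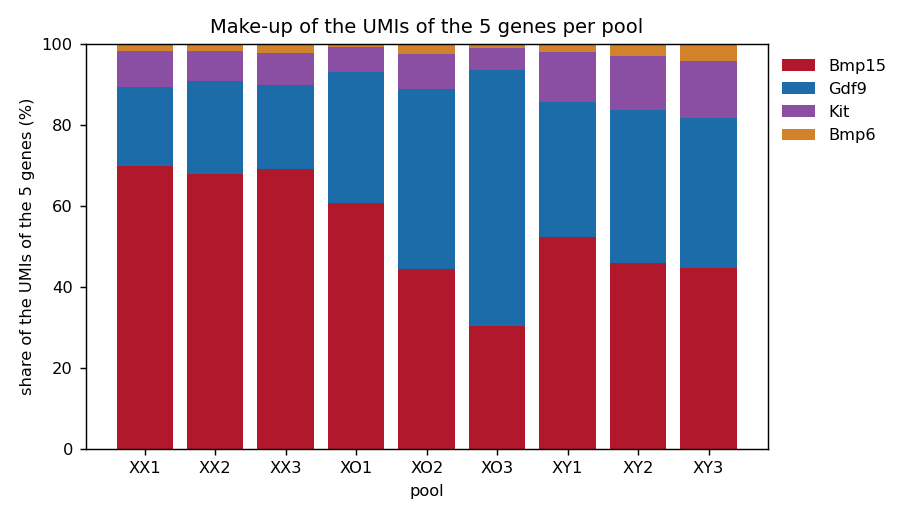
Share of Bmp15, Gdf9, Kit and Bmp6 in the UMIs of the 5 genes (vertical axis, percent) in each pool (horizontal axis), with Fgf8 too small to be seen. Bmp15 fills 68.0–69.8% of the bar in XX pools and 30.3% in XO3, where Gdf9 fills 63.3%.

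XY oocytes had the lowest level of Bmp15. Its UMIs were 2538, 2313 and 3504 in the XX pools, 1223, 1672 and 2063 in the XO pools and 789, 989 and 1398 in the XY pools. As normalized CPM the XX pools had 904, 810 and 1068, the XO pools 633, 864 and 1165 and the XY pools 367, 322 and 422, with means of 927 ± 130, 887 ± 266 and 370 ± 50.1 (SD, n = 3). All XY pools lay below all pools of XX and of XO, whereas XX and XO pools overlapped. Bmp15 was 2.50-fold higher in XX than in XY oocytes (log2 fold change 1.32, SE 0.35, edgeR adjusted p = 0.408). It was the 1 gene of the 4 tested that was called in this comparison, where 5.8% of all tested genes were called and 4.15% had all XX pools above all XY pools. Relative to the median of all genes the difference was 1.51, and with gene TMM factors it was 1.51 before that correction and 1.52 after it (edgeR adjusted p = 0.195). In XY against XO oocytes the log2 fold change was -1.26 (SE 0.34, edgeR adjusted p = 0.485), which was called, and -0.96 relative to the median of all genes. All XY pools lay below all XO pools for 6.34% of tested genes.

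Between XX and XO oocytes, which differ in the number of X chromosomes, no difference in Bmp15 was called with the spike-in factors. The log2 fold change was 0.06 (SE 0.34, edgeR adjusted p = 0.929). Relative to the median of all genes it was 0.52, and with gene TMM factors it was 0.46 (SE 0.30, edgeR adjusted p = 0.561) and not called either. The scaling decided whether pools overlapped. With gene TMM factors the XX pools had a mean of 1066 CPM, the XO pools of 733 and the XY pools of 380, and all XX pools lay above all XO pools, which held for 10.1% of tested genes. In the batch-regressed log2 values of the authors the XX pools had 10.09, 10.01 and 10.34, the XO pools 9.33, 9.25 and 9.28 and the XY pools 8.74, 8.62 and 8.71, without overlap between any pair of genotypes. Batch effects, which the authors assessed by surrogate variable analysis, had been regressed out of these values. The SD of the XO pools was then 0.04 on the log2 scale, against a coefficient of variation of 30.0% in normalized CPM. The lack of overlap is thus that of adjusted values and is not a test. The share of all genes that separate in these values was not computed. With surrogate variables as covariates, limma-voom called Bmp15 higher in XX than in XO oocytes (log2 fold change 0.49, SE 0.16, limma adjusted p = 0.0918).

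Among the 369 X-linked genes tested, the median log2 fold change was 0.31 for XX over XO pools, 0.56 for XX over XY pools and -0.20 for XY over XO pools. Bmp15 ranked 228 from the highest for XX against XO, near the middle. It ranked 20 from the highest for XX against XY, where 24.1% of X-linked genes were called higher in XX, and 20 from the lowest for XY against XO, where 5.69% were called lower in XY. Its XX against XY difference was 0.76 above the X-linked median and its XY against XO difference 1.06 below it.

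Within 2 Mb of Bmp15, 23 other X-linked genes were tested. For XX against XY their median log2 fold change was 0.85, 19 of 23 were positive, and 22 lay below Bmp15, the exception being Gpkow at 1.79. Those called higher in XX than in XY were AU022751, at 233 kb from Bmp15 on the side of lower coordinates, Shroom4, at 85.7 kb on the other side, Ccnb3, Gpkow and Gata1, while Dgkk was called lower (-1.87). The nearest neighbours on both sides had log2 fold changes of 0.82 (AU022751) and 1.06 (Shroom4). For XY against XO, Gm14820 and Suv39h1 were called lower in XY, and 20 of 23 neighbours lay above Bmp15, with AU022751 at -0.62 and Shroom4 at -0.27. For XX against XO, 5 of 23 neighbours were called higher in XX and 2 lower, where 18.2% and 4.88% of all X-linked genes were. Their median was 0.32, close to that of all X-linked genes. With gene TMM factors 9 were called higher and 1 lower, where 32.5% and 1.63% of X-linked genes were.

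**Figure D2:**
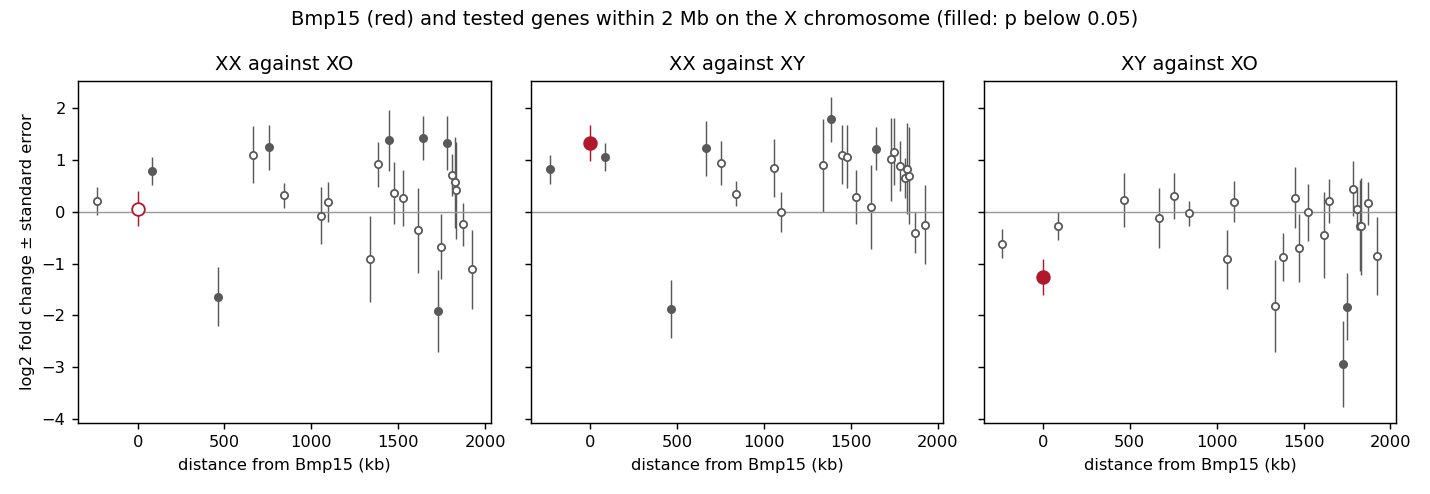
Log2 fold change with its standard error (vertical axis, edgeR with spike-in factors) of Bmp15, in red, and of the 23 other tested genes within 2 Mb, against the distance of their starts from Bmp15 (horizontal axis, kb), in the 3 comparisons. Filled points have p below 0.05, and Bmp15 is filled at 1.32 for XX against XY and at -1.26 for XY against XO.

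Gdf9 was highest in XO oocytes, with a wide spread between pools. Its UMIs were 708, 778 and 1048 in the XX pools, 654, 1681 and 4308 in the XO pools and 504, 812 and 1160 in the XY pools. As normalized CPM the XX pools had 252, 272 and 319, the XO pools 339, 869 and 2432 and the XY pools 234, 264 and 350. The XX mean was 281 ± 34.4, the XO mean 1213 ± 1088 and the XY mean 283 ± 60.2 (SD, n = 3). In this scaling all XX pools lay below all XO pools, by a small margin at XO1, and the XY pools overlapped with both. With gene TMM factors XX and XO pools overlapped, at 263–379 and 325–1762 CPM, and so did the batch-regressed log2 values, at 8.47–8.71 and 8.67–9.45. The coefficient of variation among XO pools was 89.7%, against 2.80% for counting error alone, so that depth did not limit the precision.

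The log2 fold change of Gdf9 was -2.11 for XX against XO (SE 0.62, edgeR adjusted p = 0.203), which is 4.31-fold lower in XX oocytes. It was the 1 gene of the 4 tested that was called in this comparison, where 18.1% of all tested genes were called, 16.7% as lower in XX, and 13.6% had all XX pools below all XO pools. Relative to the median of all genes the difference was -1.65, and with gene TMM factors it was -1.63 (edgeR adjusted p = 0.324) and called as well. Of all called genes, 7.75% were higher in XX with spike-in factors and 35.8% with gene TMM factors, and Gdf9 was lower under both. For XY against XO the log2 fold change was -2.10 (SE 0.62, edgeR adjusted p = 0.485). Gdf9 and Bmp15 were thus the 2 of 4 tested genes called in this comparison, in which 9.93% of all tested genes were called, 17.0% of these higher in XY with spike-in factors and 36.9% with gene TMM factors. These comparisons share the XO pools. Between XX and XY oocytes Gdf9 had a log2 fold change of -0.01 (SE 0.60, edgeR adjusted p = 1.00) and was not called, which does not show that the levels were equal. Among called genes of XX against XY, 24.3% were higher in XX with spike-in factors and 51.9% with gene TMM factors.

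The size of the Gdf9 difference depended on the model and on single XO pools. With limma-voom and surrogate variables the log2 fold change was -0.72 for XX against XO and -1.24 for XY against XO, and both were called. This model also called Gdf9 higher in XX than in XY oocytes. With the totals of the spike-ins the log2 fold change was -1.22 (SE 0.90) for XX against XO and -1.91 (SE 0.92) for XY against XO, and neither was called. In edgeR without XO3 it was -1.10 for XX against XO (edgeR adjusted p = 0.532) and -1.09 for XY against XO (edgeR adjusted p = 0.916), and both were called. Without XO1 it was -2.53 (edgeR adjusted p = 0.00418) and -2.49 (edgeR adjusted p = 0.00914), and Bmp15 in XY against XO was -1.39 (edgeR adjusted p = 0.0226). Gdf9 was 7.18-fold higher in XO3 than in XO1 in normalized CPM, and 14.2% of 10855 genes with UMIs in both had at least this ratio, with a median ratio of 1.37. Between XO3 and XO2 it was 2.80-fold, and 2.38% of 10969 genes reached this ratio. With the replicate number as a block, Gdf9 had a log2 fold change of -1.80 and Bmp15 of -1.24 for XY against XO (edgeR adjusted p = 0.227 for each), and both were called. The genes called in this comparison were then 1827 of all tested rather than 1092. The labels name no batch by this number. The deviations of XO and XY pools correlated by 0.830 for number 1 and 0.773 for number 3, but by 0.278 for number 2.

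Of 10 oocyte markers, 7 were lowest in XO1 and highest in XO3 among the XO pools, as was Gdf9, whereas Ddx4, Dazl and Oosp1 were highest in XO1. The 3 that were called are given here. Zp1, which encodes a zona pellucida protein, had 14.0, 759 and 2166 normalized CPM in XO1, XO2 and XO3. Padi6, of the cytoplasmic lattices of oocytes, had 212, 7273 and 16520. Nobox, a homeodomain factor that is known to drive Gdf9 and Bmp15, had 56.4, 522 and 1138. The summed level of the 10 oocyte markers was 24993–25854 normalized CPM for XX, 17858–44558 for XO and 19240–24152 for XY pools, and 3 of them, Zp1, Nobox and Padi6, were called lower in both other genotypes than in XO oocytes, where 16.7% of all genes were called lower in XX and 8.24% lower in XY. With gene TMM factors Padi6 was not called. The median log2 fold change of the 10 was -0.43 for XX against XO and -0.16 with gene TMM factors, near the -0.46 and -0.11 of all genes. None of the 10 was called between XX and XY. The part of the stage or make-up of the XO pools in the Gdf9 difference was not tested.

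**Figure D3:**
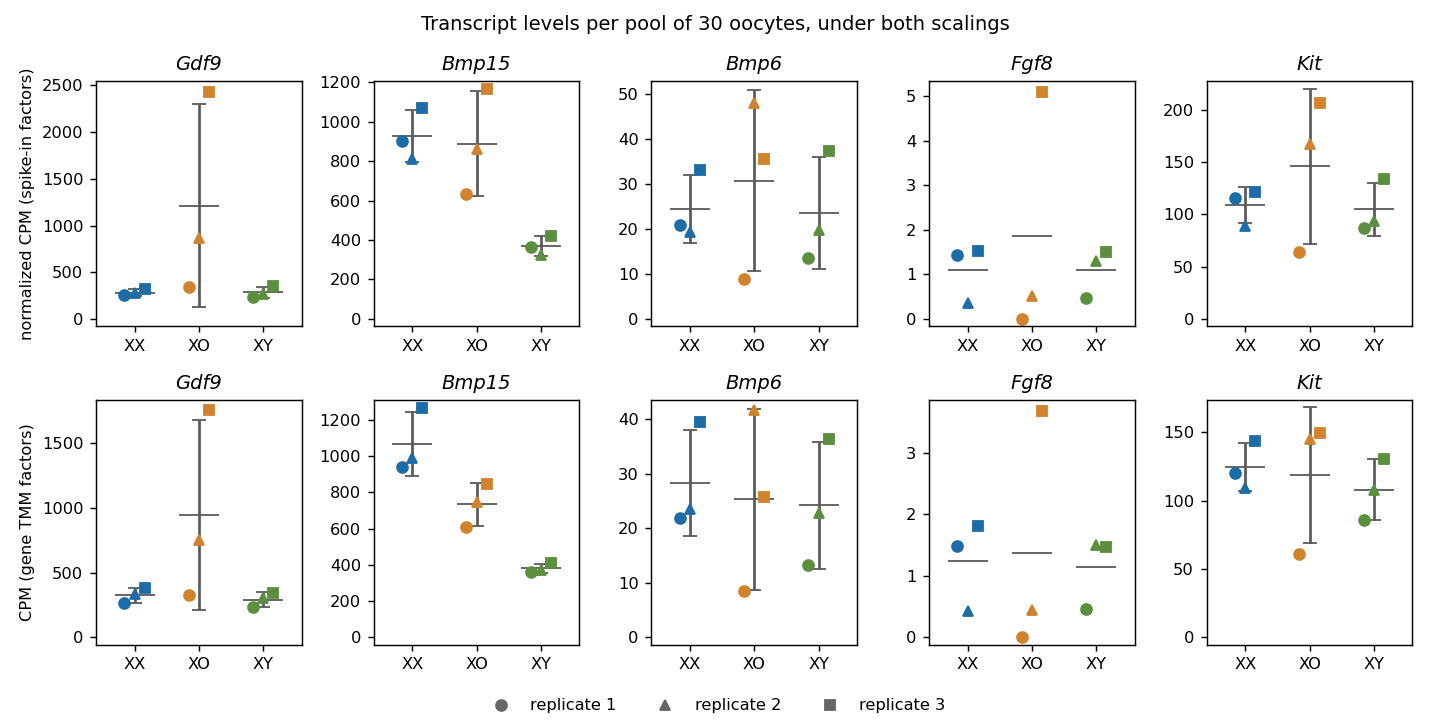
Transcript levels of the 5 genes in normalized CPM (upper row, spike-in factors) and in CPM with gene TMM factors (lower row), with 1 point per pool, a horizontal line for the mean and, except for Fgf8, bars for the SD (n = 3). Bmp15 is lowest in the 3 XY pools in both rows, and Gdf9 spans 339–2432 normalized CPM in XO pools.

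The ratio of Gdf9 to Bmp15 within a pool needs no scaling factor. It was 0.279, 0.336 and 0.299 in the XX pools, 0.535, 1.005 and 2.088 in the XO pools and 0.639, 0.821 and 0.830 in the XY pools. Each of the 3 XX pools lay below each of the other 6, and the counting error of a ratio was at most 0.082 on the log2 scale. XX oocytes thus had 2.92-fold less Gdf9 per Bmp15 than the XO and XY pools combined, a difference of -1.55 in mean log2 ratio. The exact permutation test, two-sided, gave p = 0.0119, the smallest that 84 splits can give, and 0.0714 after adjustment over the 6 ratios among the 4 tested genes. Among 3 genotypes the exact permutation F test over all assignments of the pools gave p = 0.0179, adjusted p = 0.0536. Against XO pools alone the difference was -1.77 and against XY pools alone -1.32, each with p = 0.1 in the exact permutation test, the smallest possible with 3 against 3. Between XY and XO pools, which overlapped, it was -0.46 (exact permutation p = 0.5).

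The background of this pattern differs between its parts. Of 7269 genes whose mean level reached 10 normalized CPM, 19.8% had a ratio to Bmp15 that was lower in all XX pools than in the other 6, and 2.24% a ratio to Gdf9 that was higher in all XX pools, as that of Bmp15 was. In the XY pools the ratio was higher with Gdf9 at 283 and Bmp15 at 370 normalized CPM, against 281 and 927 in XX pools. In the XO pools it was higher with Gdf9 at 1213 and Bmp15 at 887. This split depends on the scaling and on single pools. With gene TMM factors Gdf9 and Bmp15 had means of 325 and 1066 CPM in XX, 946 and 733 in XO and 292 and 380 in XY pools. Bmp15 was then lower in XO than in XX pools as well. In XO1 alone Gdf9 was at 339 and Bmp15 at 633 normalized CPM, and in XO3 they were at 2432 and 1165. The mean levels behind the ratio thus differed between XY and XO pools. In the batch-regressed values the ratios were 0.325, 0.407 and 0.283 in XX, 0.828, 0.667 and 1.126 in XO and 0.877, 0.921 and 0.733 in XY pools, and XX pools again lay below the other 6. For these adjusted values, which come from the same pools and are not separate evidence, no share of all genes was computed.

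**Figure D4:**
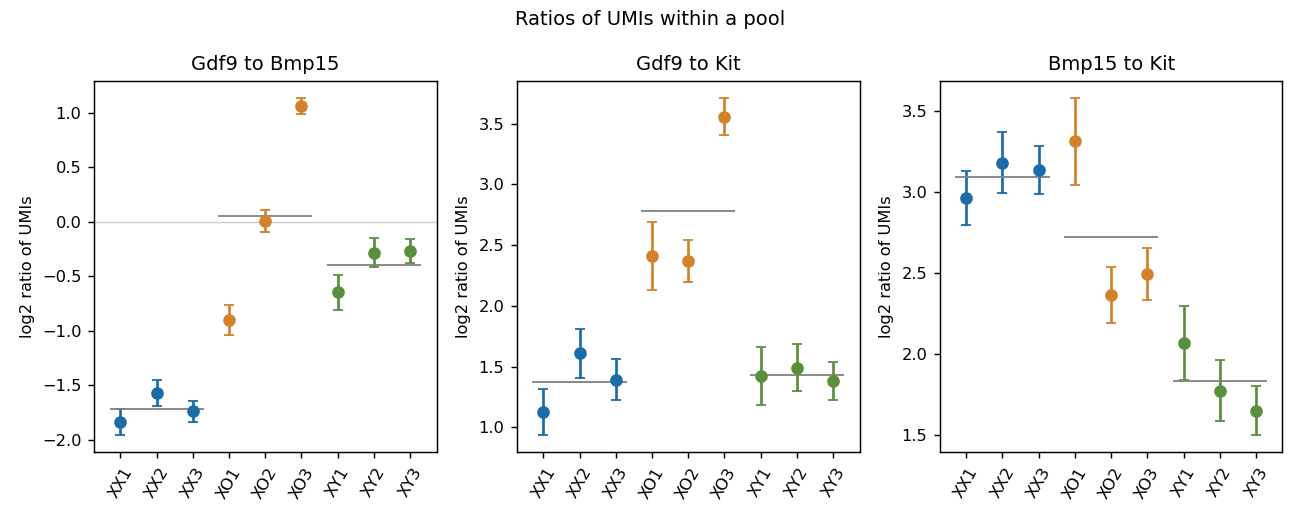
Log2 ratios of UMIs within each of the 9 pools (vertical axes) for Gdf9 to Bmp15, Gdf9 to Kit and Bmp15 to Kit, with bars for the 95% interval of counting error and horizontal lines at the mean of each genotype. XX pools are lowest for Gdf9 to Bmp15, XO pools highest for Gdf9 to Kit and XY pools lowest for Bmp15 to Kit.

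Kit served as a further reference for both ligands. Bmp15 to Kit was 7.81, 9.07 and 8.78 in XX, 9.94, 5.14 and 5.64 in XO and 4.20, 3.42 and 3.14 in XY pools. All XY pools lay below the XX and the XO pools (exact permutation F test p = 0.0143, adjusted p = 0.0536). Gdf9 to Kit was 2.18, 3.05 and 2.63 in XX, 5.32, 5.17 and 11.8 in XO and 2.68, 2.81 and 2.61 in XY pools, and all XO pools lay above the other 6 (exact permutation F test p = 0.0286, adjusted p = 0.0571). Gdf9 to Bmp6 was 9.61–14.1 in XX, 18.1–68.4 in XO and 9.35–17.4 in XY pools (exact permutation F test p = 0.0393, adjusted p = 0.0589). Bmp15 to Bmp6 (exact permutation p = 0.136) and Bmp6 to Kit (exact permutation p = 0.789) had pools of XX and XO oocytes in overlap. For Bmp15 to Bmp6, all XX pools, at 32.1–43.0, lay above all XY pools, at 11.3–27.2. The shares of all genes whose ratios to Kit or Bmp6 separate in these ways were not computed. After adjustment none of the 6 ratios passed, as the smallest adjusted p was 0.0536 in the exact permutation F test.

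Kit, the receptor, was not called in any comparison. Its UMIs were 325, 255 and 399 in XX, 123, 325 and 366 in XO and 188, 289 and 445 in XY pools, and its mean level was 109 ± 17.2, 146 ± 73.9 and 105 ± 25.4 normalized CPM (SD, n = 3). The pools of the genotypes overlapped, with the lowest and the highest level both in XO pools. Log2 fold changes were -0.42 (SE 0.42) for XX over XO pools, 0.05 (SE 0.42) for XX over XY pools and -0.47 (SE 0.42) for XY over XO pools. Without XO1, Kit was called lower in XX (log2 fold change -0.74, edgeR adjusted p = 0.106) and in XY (-0.75, edgeR adjusted p = 0.125) than in XO oocytes. In the batch-regressed values XO pools, at 6.27–6.55, lay below XX pools, at 6.99–7.26, and XY pools, at 6.94–6.96, the reverse of the order of means in normalized CPM. The share of all genes with such a separation in these values was not computed.

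Bmp6 was 1 to 2 orders of magnitude below Bmp15. It had 59, 55 and 109 UMIs in XX, 17, 93 and 63 in XO and 29, 61 and 124 in XY pools, which are 24.5 ± 7.60, 30.8 ± 20.1 and 23.6 ± 12.4 normalized CPM (SD, n = 3). The pools of all genotypes overlapped. Log2 fold changes were -0.33 (SE 0.58) for XX over XO pools, 0.05 (SE 0.58) for XX over XY pools and -0.38 (SE 0.58) for XY over XO pools, and none was called. The lowest of the 9 pools was XO1 for Bmp6 and for Kit.

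Fgf8 was near the limit of detection. It had 4, 1 and 5 UMIs in XX, 0, 1 and 9 in XO and 1, 4 and 5 in XY pools, a total of 10 in each genotype. Scaled to the gene UMIs alone, these totals are 1.32 CPM for XX (exact Poisson 95% interval 0.633–2.43), 1.41 CPM for XO (0.674–2.59) and 1.26 CPM for XY oocytes (0.604–2.31), intervals which cover counting error only. The 0 UMIs of XO1 allow up to 1.30 CPM with a limit of 3 UMIs. The exact Poisson 95% interval used for the totals would end higher, at 3.69 UMIs. A difference in Fgf8 between genotypes was not detectable at this depth, and no ratio with Fgf8 was computed.

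The calls of Gdf9 and Bmp15 were also read against those of all genes in the other fits. With gene TMM factors, in which Gdf9 was called against XO oocytes and Bmp15 in XY oocytes as with the spike-ins, the called share of all genes was 12.2% for XX over XO, 5.14% for XX over XY and 9.01% for XY over XO. With the totals of the spike-ins as scaling, these shares were 3.12%, 2.58% and 1.24%, and Bmp15 was called between XX and XY oocytes only. With the replicate block they were 23.0%, 9.16% and 16.6%, with DESeq2 13.7%, 5.24% and 10.2%, without the filter 14.1%, 4.33% and 9.75%, and with limma-voom and surrogate variables 19.5%, 19.4% and 28.6%. After adjustment, edgeR left 0%, 0.0819% and 0.0364% of all genes and none of the members tested, although the 3 shares were 5.73%, 0.332% and 2.79% without the filter, where Gdf9 passed against XO oocytes in both comparisons. DESeq2 left 1.64%, 0.728% and 0.592%, with Bmp15 passing in XY oocytes against both others, and limma-voom 5.64%, 5.55% and 13.6%, with Bmp15 passing in the same comparisons and Gdf9 between XY and XO oocytes.

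**Figure D5:**
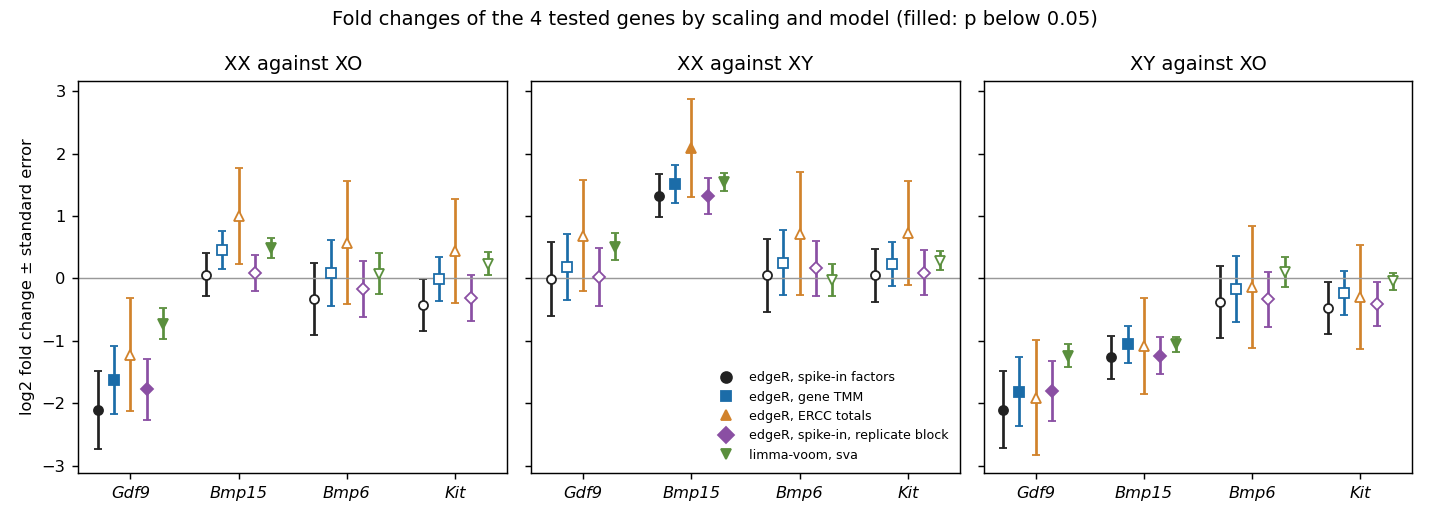
Log2 fold changes with standard errors (vertical axis) of Gdf9, Bmp15, Bmp6 and Kit in the 3 comparisons, by scaling and model (colours and symbols), filled where p was below 0.05. Bmp15 is above 0 for XX against XY and Gdf9 below 0 for XX against XO under all 5, while Bmp6 and Kit are never filled.

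Genes whose level followed each of the 4 tested genes most closely were taken as those with the smallest SD of the log2 ratio over the 9 pools among 7269 genes. The pools share their libraries and these values describe likeness of level only. For Gdf9 they were Dusp14 (SD 0.18), Cks1b (0.18) and Rpl27 (0.21), against a median of 1.08 over all genes, and Dusp14 had 19.7, 54.3 and 127.6 normalized CPM in XO1, XO2 and XO3. For Bmp15 they were Gm3106 (0.19), Gm16427 (0.26) and the X-linked Scml2 (0.31), against a median of 0.88, and Gm3106 had 98.7–170.6 normalized CPM for XX, 76.1–137.2 for XO and 53.0–54.0 for XY pools. For Bmp6 they were Tacc3 (0.15), Lhx8 (0.16), which encodes an oocyte homeodomain factor, and Rcan3 (0.18). For Kit they were Cnot1 (0.08), Fryl (0.10) and Cdca5 (0.11), against a median of 0.67.

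Genes that act with these 5 were taken from 8 lists. Of the listed genes 85 were in the count matrix, and 53 of these were tested. Against XO oocytes, 1 was called higher and 11 lower in XX, 22.6% against 18.1% of all genes. For XX against XY 4 were called lower and 0 higher, 7.55% against 5.8%, and for XY against XO 1 higher and 5 lower, 11.3% against 9.93%. The shares of the lists were thus near those of all genes. No gene of the lists passed adjustment, and the lowest adjusted p of edgeR was 0.203.

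Of 7 receptor genes tested for BMP and GDF ligands none was called. The most abundant were Bmpr1b, the type 1 receptor at 212–267 normalized CPM for XX, 233–456 for XO and 310–466 for XY pools, and Bmpr2, the type 2 receptor that binds GDF9 and BMP15, at 56.1–64.1, 55.8–74.0 and 71.9–83.7. Of 5 SMAD genes, which carry the signal of these receptors, Smad4 alone was called, lower in XX than in XO oocytes (log2 fold change -0.81, edgeR adjusted p = 0.265). With gene TMM factors no SMAD gene was called. Of the convertases that cleave the ligand precursors only Pcsk4 was tested, and Furin had at most 5.6 normalized CPM in any pool. Of 12 antagonist genes only 2, Fstl1 and Twsg1, were tested, and 6 had no UMI. Fstl1 was called lower in XX (-1.67, edgeR adjusted p = 0.203) and in XY (-1.38, edgeR adjusted p = 0.485) than in XO oocytes. It had 44.5–67.7, 99.4–231.1 and 59.9–83.0 normalized CPM in XX, XO and XY pools. Twsg1 was called lower in XY than in XO (-2.06). Against XO oocytes, 16.7% of all genes were called lower in XX and 8.24% lower in XY. Among other ligands Bmp5 was called lower in XX than in XO (-0.82) and in XY (-0.74), while Oosp1, an oocyte-secreted protein, was the most abundant of its list, at 2225–9137 normalized CPM, and not called. With gene TMM factors neither Bmp5 nor any other gene of this list was called.

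Of 4 tested genes of the FGF list 3 were called lower in XX than in XO oocytes. Of all genes 16.7% were called lower, and with gene TMM factors Fgf9 alone of the 3 was called. The 3 were Fgf9, a ligand (-1.44, edgeR adjusted p = 0.203), Spry1, a feedback inhibitor (-1.20), and Fgfr2, a receptor (-1.53). Fgf9 was also called lower in XX than in XY (-0.73) and in XY than in XO (-0.70), but neither call held with gene TMM factors. Its levels of 6.7–8.5, 18.1–25.4 and 11.1–14.8 normalized CPM in XX, XO and XY pools did not overlap. Of all tested genes, 13.6% had all XX pools below all XO pools, 11.7% all XX below all XY and 6.34% all XY below all XO. Of 19 tested genes of the KIT pathway 1 had a higher and 4 a lower level in XX than XO oocytes among the called. With gene TMM factors 2 were called lower. The 1 higher was Kitl, the ligand of KIT (1.09, edgeR adjusted p = 0.203), with 16.8 ± 2.61, 7.86 ± 1.99 and 11.5 ± 1.28 normalized CPM in XX, XO and XY pools (SD, n = 3). Kitl is a product of granulosa cells and is itself in the list of their markers. Without it, the summed level of the other 11 markers was 32.6–46.9 normalized CPM for XX, 46.1–55.9 for XO and 45.6–80.0 for XY pools. Of these 11 markers 8 had a UMI, and Amh, Foxl2 and Hsd17b1 had none. Cyp19a1 and Nr5a2, the pair that was tested, were not called. The part of granulosa cells in the Kitl difference was not tested. Gab2, an adaptor, and Adam17, a protease that sheds cell surface proteins, were among the lower ones (-2.36 and -1.83), and Grb2, an adaptor, was called lower in XX than in XY (-1.08).

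Among 10 tested regulators of oocyte genes, Nobox was called lower in XX (-2.85, edgeR adjusted p = 0.203) and in XY (-2.38, edgeR adjusted p = 0.485) than in XO oocytes, as was Gdf9. Its levels were 62.0–108.8, 56.4–1138 and 51.6–184.7 normalized CPM for XX, XO and XY pools, so that the pools overlapped. Kdm5b, a histone demethylase, was the 1 gene called higher in XY, by 1.59 against XO (edgeR adjusted p = 0.485), and it was lower in XX than in XY (-1.56, edgeR adjusted p = 0.395). Its levels were 17.7–27.8, 13.5–35.0 and 49.3–83.3 normalized CPM in XX, XO and XY pools. Among markers of other cells, the summed theca and stroma markers were at most 14.2 normalized CPM, the immune markers at most 1.55, and the erythrocyte markers had no UMI. The 4 endothelial markers summed to 26.6–58.5 in XX, 20.7–146.2 in XO and 37.6–69.4 in XY pools, mostly Pecam1, which had 14.5, 109.1 and 131.5 in XO1, XO2 and XO3 and was not called. Those of Sertoli cells summed to at most 29.3, with Cldn11 called lower in XX than in XY (-1.17) and Sox9 without a UMI. With gene TMM factors Cldn11 was not called.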

How the data were processed

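Smart-seq3 libraries from 9 pools of oocytes were analysed, and no pool was left out. Paired-end, strand-specific reads had been mapped to GRCm38 by the authors using HISAT2, and the 5′ UMIs of each gene were deposited as counts. They deposited a signal that they call normalized CPM, which equals the counts divided by the product of gene total and TMM factor, taken from 79 ERCC spike-ins (relative difference at most 5.1e-15), and log2 values with batch effects regressed out. Depth was 2130145–3157338 gene UMIs per pool, and intervals and the limit of 3 UMIs cover counting error only. Groups followed the sample labels, and the XO column without a number was taken as XO1.

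Counts were tested with edgeR 4.0.16 (quasi-likelihood, filterByExpr, 1 mean per genotype, all 9 pools, spike-in factors, common dispersion 0.201), which the study did with limma and surrogate variables. Here limma 3.58.1 with 2 surrogate variables from sva 3.50.0, DESeq2 1.42.0, gene TMM factors, spike-in totals, no filter, a replicate block and omission of each pool were alternatives. The code was tested on simulated data. Ratios of UMIs were compared by exact permutation tests in scipy 1.17.1. The deviations of pools with the same number correlated by 0.830, 0.278 and 0.773 for XY and XO, so number 2 did so only weakly. Any such pairing comes from the data alone, and deviations of 3 pools from their mean are not independent. Those of XX pools correlated by 0.468, -0.447 and 0.679 with XO and by 0.435, -0.060 and 0.726 with XY, so that number 2 did not pair. The labels name no batch shared by number. All 5 genes were named, and of each list the 2 most abundant genes and up to 3 called genes, for Bmp15 its X-linked neighbours, for the others the 3 genes most alike. The genes and lists were chosen with earlier results of these data known.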

Additional observations from a re-analysis of the deposited data

How the results depend on the processing

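Scaled by spike-in totals, 0 of the 5 genes were called for XX against XO and 0 for XY against XO, where the test otherwise called 1 and 2. For XY against XO the log2 fold changes were then -1.91 (SE 0.92) for Gdf9 and -1.09 (SE 0.77) for Bmp15, against -2.10 (SE 0.62) and -1.26 (SE 0.34). Limma-voom with surrogate variables called 2 for XX against XO and 2 for XX against XY, adding Bmp15 and Gdf9 (0.511), respectively. Gene TMM factors, DESeq2, no filter and the replicate block changed no count of called genes. When each pool was left out in turn, the count was 1–2 for XX against XO, 1 for XX against XY and 2–3 for XY against XO. A replicate block cannot move the mean differences in the ratio of Gdf9 to Bmp15, which are -1.55 between XX and the other pools (exact permutation p = 0.0370 over 27 arrangements within the block), -1.77 against XO, -1.32 against XY (each p = 0.25, the smallest of 8 arrangements) and -0.46 for XY against XO. The block turned Gdf9 for XX against XY to 0.027 and changed no call of the 5 genes. Leaving out pools gave ranges of -1.69 to -1.30 for this ratio (exact permutation p = 0.0179 to 0.0357), -2.25 to -1.27 against XO, -1.44 to -1.25 against XY and -0.94 to 0.048 for XY against XO, where the sign turned without XO3.

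Limma-voom turned the sign of Gdf9 for XX against XY and called it, as given above. The other signs that turned belonged to differences that were not called. For XX against XO these were Bmp6 with gene TMM factors (0.089), spike-in totals (0.57), DESeq2 (0.060) and limma-voom (0.079), and Kit with spike-in totals (0.44) and limma-voom (0.24). For XX against XY they were Gdf9 with gene TMM factors (0.18), spike-in totals (0.69) and DESeq2 (0.17), and Bmp6 with limma-voom (-0.023). For XY against XO it was Bmp6 with limma-voom (0.10). The cause was not tested. Without single pools, Bmp15 ranged from -0.092 to 0.31 and Bmp6 from -0.72 to 0.15 for XX against XO, Gdf9 from -0.14 to 0.18, Bmp6 from -0.27 to 0.56 and Kit from -0.069 to 0.28 for XX against XY, and Bmp6 from -0.78 to 0.10 for XY against XO.

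In edgeR with its filter and all 9 pools, no gene of the 5 passed adjustment, whereas without XO1 Gdf9 passed against XO oocytes in both comparisons and Bmp15 for XY against XO. Bmp15 did so in DESeq2 for XX against XY (adjusted p = 5.0e-08) and XY against XO (adjusted p = 0.00139), and Gdf9 in edgeR without the filter, for XX against XO (adjusted p = 0.0028) and XY against XO (adjusted p = 0.0052). Over all genes, 0, 9 and 4 passed adjustment in edgeR in the order XX–XO, XX–XY, XY–XO, 620, 610 and 1490 in limma-voom and 180, 80 and 65 in DESeq2. With 3 pools per genotype, ratios could not reach 0.05 between a pair of genotypes, and Fgf8 was limited by depth.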
